A study of Mus musculus with 24 samples.

Results

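The Tdpoz genes described here are the 7 of 23917 genes in both expression tables whose symbol starts with Tdpoz (Tdpoz1 to Tdpoz5) or is Gm4858 or Gm10696. RefSeq names Gm4858 Tdpoz8 and Gm10696 Spopfm2, a speckle-type POZ protein family member. The genes were picked because their RNA and footprints were high after inhibition of tRF-GG, so their differences between inhibitor and control libraries are given as a description with no test. The cells were E14 mouse embryonic stem cells, an established line, and all groups were of this line. They were transfected with oligonucleotides carrying locked nucleic acids (LNA) that are complementary to tRF-GG, a fragment of glycine tRNAs (the inhibitor group), with an esiRNA against GFP (the GFP group), or mock-transfected (the mock group). From each group 4 RNA libraries and 4 libraries of ribosome footprints of 26 to 32 nucleotides were sequenced, 24 in all. The labels name no scrambled LNA, so the presence of an LNA and its sequence cannot be told apart. They do not say whether the numbered libraries of a group came from separate cultures. The comparison asks which RNAs, and which ribosome-bound RNAs, differ when tRF-GG is blocked.

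Tdpoz proteins join a TRAF-like domain (also called MATH) to a POZ domain (also called BTB), the arrangement found in SPOP. SPOP binds its substrates through the TRAF-like domain and the CUL3 ubiquitin ligase through the POZ domain; whether the Tdpoz proteins act in this way is less well known. The genes are known for their transcripts in the mouse 2-cell embryo, the stage at which the embryo's own genome is switched on. Embryonic stem cell cultures hold a rare, passing population of cells that turns on such genes together with Zscan4, Tcstv and transcripts of the MERVL retroelement.

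All 7 genes lie in 1 cluster on chromosome 3 (GRCm38), which runs over 1109 kb. In order along the chromosome they are Gm4858 (chr3:93068823-93075505), Tdpoz2 (chr3:93651542-93652686), Tdpoz1 (chr3:93669333-93676283), Tdpoz4 (chr3:93796398-93797510), Tdpoz3 (chr3:93826020-93827117), Tdpoz5 (chr3:93960292-93961314) and Gm10696 (chr3:94174412-94178193). Tdpoz2, Tdpoz3, Tdpoz4 and Tdpoz5 are short genes of 1023 to 1145 bases, and Gm4858, Tdpoz1 and Gm10696 span 6683, 6951 and 3782 bases. RefSeq annotates 42 genes within the cluster, of which 22 are pseudogenes and 18 protein coding.

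The sequences at the annotated starts fall into groups that share long runs. RefSeq start windows, 250 bases before to 50 after a start, were at hand for 5 of the 7 genes in 6 windows (GRCm38.p6). The first group holds the first starts of the 3 longer genes. They are shown because a run of 26 bases, CAGGAAAACACACACCTTTAATCCAG, is common to all 3 windows, with a TATATAA downstream of it. Both are in capitals.

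Gm4858, chr3:93068573-93068872, plus strand: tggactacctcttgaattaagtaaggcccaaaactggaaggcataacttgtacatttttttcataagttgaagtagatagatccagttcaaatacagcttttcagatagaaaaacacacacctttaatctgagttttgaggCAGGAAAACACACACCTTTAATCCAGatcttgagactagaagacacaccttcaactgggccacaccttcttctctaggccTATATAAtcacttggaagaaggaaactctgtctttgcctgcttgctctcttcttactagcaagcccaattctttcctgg
Tdpoz1, chr3:93676234-93676533, minus strand: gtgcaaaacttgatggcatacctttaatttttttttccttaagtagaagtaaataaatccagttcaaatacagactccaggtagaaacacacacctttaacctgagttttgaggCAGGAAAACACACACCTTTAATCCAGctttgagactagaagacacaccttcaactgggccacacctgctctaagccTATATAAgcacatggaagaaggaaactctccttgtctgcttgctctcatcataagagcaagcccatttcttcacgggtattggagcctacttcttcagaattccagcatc
Gm10696, chr3:94178144-94178443, minus strand: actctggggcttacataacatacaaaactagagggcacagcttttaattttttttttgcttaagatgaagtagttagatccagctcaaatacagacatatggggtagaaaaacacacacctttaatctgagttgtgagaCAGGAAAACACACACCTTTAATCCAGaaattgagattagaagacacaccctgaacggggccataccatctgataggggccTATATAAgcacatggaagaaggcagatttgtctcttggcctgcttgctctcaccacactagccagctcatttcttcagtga

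Aligned to each other, these windows had 79.9% identical bases over 293 aligned positions (Gm4858 and Gm10696), 87.6% over 266 (Gm4858 and Tdpoz1) and 83.1% over 267 (Gm10696 and Tdpoz1). The 26-base run, searched on both strands, occurred in 4 of 32851 RefSeq start windows (0.0122%). These 4 are the 3 shown and the window of Gm9125, a neighbouring gene that RefSeq names Tdpoz9 and that the choice of genes by symbol left out. The Gm9125 window was 100% identical to that of Tdpoz1 over 272 aligned bases. TATATAA, searched on both strands, occurred in 1065 windows (3.24%). It began at -29 from the annotated start in Gm4858, at -31 in Gm10696, at -33 in Gm9125 and at -60 in Tdpoz1.

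The second group holds the start of the short gene Tdpoz4 and the second annotated start of Gm4858. These windows are shown because they share an unbroken run of 130 bases, in capitals.

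Tdpoz4, chr3:93796148-93796447, plus strand: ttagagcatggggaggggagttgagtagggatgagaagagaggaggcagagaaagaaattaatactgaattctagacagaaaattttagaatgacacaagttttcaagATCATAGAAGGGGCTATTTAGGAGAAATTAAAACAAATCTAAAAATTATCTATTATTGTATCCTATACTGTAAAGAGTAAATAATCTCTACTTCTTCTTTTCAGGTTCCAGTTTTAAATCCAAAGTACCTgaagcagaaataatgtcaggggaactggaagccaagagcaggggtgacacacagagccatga
Gm4858 second start, chr3:93073271-93073570, plus strand: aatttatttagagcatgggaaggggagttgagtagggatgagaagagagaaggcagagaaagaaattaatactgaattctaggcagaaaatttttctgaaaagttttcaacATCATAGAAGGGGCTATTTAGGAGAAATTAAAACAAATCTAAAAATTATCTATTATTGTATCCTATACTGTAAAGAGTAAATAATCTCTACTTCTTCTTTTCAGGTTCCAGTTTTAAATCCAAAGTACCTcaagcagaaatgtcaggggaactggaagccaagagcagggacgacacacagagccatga

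They were 96.2% identical over 293 aligned bases. The Tdpoz5 window had 71.6% identical bases with Tdpoz4 over 285 aligned positions and shared an unbroken run of 14 bases with both. None of these 3 windows held TATATAA or the 26-base run. Whether transcription begins at these annotated starts was not tested, so no type of promoter is read from the windows. A match is a description of the letters and shows no binding. The windows lie mostly before the annotated starts, and transcript sequences were not at hand. If the transcripts are also alike, short reads can match several of the genes, which was not checked. RSEM, which the submitters used, divides such reads by an estimate. The value of any single gene is therefore taken as uncertain, and the sum over the family is given beside it.

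Levels are FPKM, which relate fragments to transcript length and library size, as estimated by RSEM. They were made comparable across libraries with median-of-ratios factors, and differences are of log2(scaled FPKM + 1), which understates the change of genes near 0. Summed over the 7 genes, the RNA level in inhibitor libraries 1 to 4 was 106, 34.7, 42.3 and 11.8 scaled FPKM. It was 4.85, 1.24, 2.30 and 0.321 in the GFP libraries and 7.47, 0.342, 2.41 and 0.902 in the mock libraries. Every inhibitor library lay above every control library. The family total was higher in inhibitor than in GFP RNA by 3.79 (log2) on average, with 3.27 to 4.19 over the same-numbered pairs, and higher than in mock RNA by 3.70 (2.75 to 4.73 over the pairs). In a bulk culture, more cells that express a gene and more RNA per cell cannot be told apart.

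Ribosome footprints showed the same separation. The summed footprint level was 28.5, 79.6, 10.5 and 7.23 scaled FPKM in inhibitor libraries 1 to 4. It was 1.06, 4.26, 0.833 and 0.216 in GFP libraries and 4.97, 1.14, 0.310 and 0.491 in mock libraries. Again no control library reached the lowest inhibitor library. The mean difference in footprints was 3.30 (log2) from GFP, with 2.65 to 3.94 over the same-numbered pairs, and 3.29 from mock.

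Which inhibitor library was highest in RNA depended on the scaling. On the scaled values the highest was number 1, while the FPKM as deposited summed to 17.99, 48.3, 60.9 and 15.6 in inhibitor RNA 1 to 4, with number 3 highest and number 4 lowest. In inhibitor footprints 1 to 4 they summed to 40.6, 53.9, 8.04 and 8.90, with number 2 highest as on the scaled values and number 3 in place of number 4 the lowest. Without scaling too, every inhibitor library lay above every control library, the highest of which were GFP RNA 1 at 4.25 FPKM and mock footprint 1 at 4.24.

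**Figure D1:**
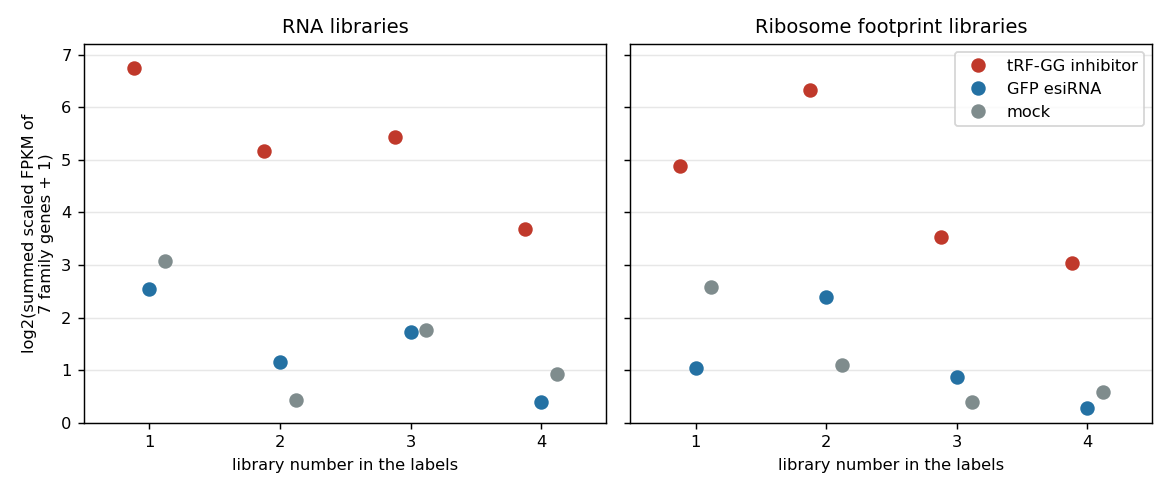
Summed level of the 7 Tdpoz family genes, log2(summed scaled FPKM + 1), on the y axis against the library number on the x axis, with RNA on the left and footprints on the right, and 1 point per library for the inhibitor, GFP and mock groups. The lowest inhibitor library (11.8 scaled FPKM in RNA, 7.23 in footprints) lies above the highest control library (7.47 in RNA, 4.97 in footprints).

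Technical measures of the libraries stand beside these sums. The ribosomal precursor Rn45s took 62.7% of the summed FPKM in inhibitor RNA 1, the RNA library with the highest scaled family level, 18.1% in GFP RNA 1, 39.1% in mock RNA 1, and between 1.68% and 5.25% in each remaining RNA library. In footprints it took 18.5% to 44.2%. Without the 3 RNA libraries numbered 1, the family difference was 3.66 from GFP and 3.72 from mock, so it was about as large without them. Whole-read steps in the low values implied 550000 to 7747000 reads per RNA library, lowest in mock RNA 3, and 1837000 to 9046000 per footprint library, lowest in inhibitor footprint 3. In mock RNA 3, Tdpoz2 at 1.19 scaled FPKM corresponded to 1 read.

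Tdpoz4 had the highest level of the family. Its RNA stood at 34.9, 12.7, 14.8 and 4.43 scaled FPKM in inhibitor libraries 1 to 4, against 0, 0.186, 0.843 and 0 in GFP libraries and 2.03, 0, 1.23 and 0.0957 in mock libraries. Its lowest inhibitor value is above its highest control value. The log2 difference was 3.56 (SE 0.50) from GFP and 3.12 (SE 0.50) from mock, with n = 4 libraries per group. In footprints it stood at 8.65, 23.1, 1.68 and 2.32 in inhibitor libraries, against 0.306, 0.769, 0.318 and 0 in GFP libraries and 0.890, 0.236, 0.0998 and 0 in mock libraries. The footprint groups did not overlap either. The footprint differences were 2.35 (SE 0.57) from GFP and 2.41 (SE 0.57) from mock.

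Gm4858, the gene that starts the cluster, also had inhibitor libraries above every control library in RNA and in footprints. Its footprints were 5.91, 13.3, 2.24 and 2.37 scaled FPKM in inhibitor libraries 1 to 4, against 0.160, 0.597, 0 and 0 in GFP libraries and 0.515, 0.0643, 0 and 0 in mock libraries. Its footprint difference was 2.30 (SE 0.39) from GFP and 2.35 (SE 0.39) from mock. Its RNA was 13.1, 4.24, 6.42 and 2.04 in inhibitor libraries, against 0, 0.162, 0.364 and 0.188 in GFP libraries and 1.40, 0, 0 and 0.176 in mock libraries. The inhibitor libraries were again the highest. The RNA difference was 2.45 (SE 0.40) from GFP and 2.30 (SE 0.40) from mock.

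Tdpoz2 and Tdpoz5 followed closely. Tdpoz2 RNA was 20.9, 3.87, 5.95 and 1.999 scaled FPKM in inhibitor libraries, against 1.55, 0, 0.486 and 0.133 in GFP libraries and 0.312, 0, 1.19 and 0.0957 in mock libraries. Tdpoz5 RNA was 14.6, 5.33, 5.75 and 2.41 in inhibitor libraries, against 1.75, 0.101, 0 and 0 in GFP libraries and 0.713, 0, 0 and 0.0239 in mock libraries. Neither gene's RNA groups overlapped. The RNA differences from GFP were 2.25 (SE 0.51) for Tdpoz2 and 2.39 (SE 0.43) for Tdpoz5, and those from mock were 2.37 (SE 0.51) and 2.58 (SE 0.43).

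Their footprints were closer to the controls in the weakest libraries. Tdpoz2 footprints were 3.34, 13.9, 1.96 and 0.658 in inhibitor libraries, against 0.0765, 0.385, 0 and 0 in GFP libraries and 0.129, 0.236, 0.0998 and 0.491 in mock libraries. Tdpoz5 footprints were 4.29, 10.8, 1.83 and 0.382 in inhibitor libraries, against 0.0834, 0.587, 0 and 0 in GFP libraries and 0.433, 0.129, 0.110 and 0 in mock libraries. Tdpoz5 in inhibitor footprint 4 thus lay within the range of both control groups. The footprint differences from GFP were 1.93 (SE 0.50) for Tdpoz2 and 1.79 (SE 0.50) for Tdpoz5, and from mock 1.78 (SE 0.50) and 1.77 (SE 0.50).

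Gm10696, which RefSeq places in the SPOP family by name, was high but overlapped the controls in 1 RNA library. Its RNA was 20.6, 7.03, 7.43 and 0.897 scaled FPKM in inhibitor libraries, against 1.55, 0.410, 0.607 and 0 in GFP libraries and 1.38, 0.171, 0 and 0.144 in mock libraries. Inhibitor RNA 4 lay below GFP RNA 1 and mock RNA 1. In footprints it stood at 4.96, 14.2, 2.81 and 1.10 in inhibitor libraries, against 0.167, 0.861, 0.269 and 0 in GFP libraries and 1.35, 0.214, 0 and 0 in mock libraries. Here the groups were apart from GFP but not from mock, whose library 1 exceeded inhibitor library 4. The differences from GFP were 2.23 (SE 0.58) in RNA and 2.01 (SE 0.51) in footprints, and from mock 2.44 (SE 0.58) and 1.997 (SE 0.51).

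Tdpoz3 and Tdpoz1 stood apart from these 5 genes. Tdpoz3 RNA was 2.06, 1.012, 1.92 and 0 scaled FPKM in inhibitor libraries, against 0, 0.379, 0 and 0 in GFP libraries and 1.63, 0, 0 and 0.287 in mock libraries, with overlapping groups. Its differences from GFP were 0.93 (SE 0.38) in RNA and 0.53 (SE 0.47) in footprints, and those from mock were 0.60 (SE 0.38) and 0.60 (SE 0.47). Tdpoz3 footprints were 1.23, 4.39, 0 and 0.398 in inhibitor libraries, against 0.229, 1.06, 0.245 and 0.216 in GFP libraries and 1.65, 0.207, 0 and 0 in mock libraries. Tdpoz1 was listed at 0 in all 4 GFP RNA libraries and above 0 in 1 inhibitor RNA library, number 2, at 0.531. It was above 0 in mock RNA 2 and 4, at 0.171 and 0.0798, and its highest footprint value was 0.105, in inhibitor library 1. The first-start window of Tdpoz1 shares the 26-base run shown above with the windows of Gm4858 and Gm10696.

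**Figure D2:**
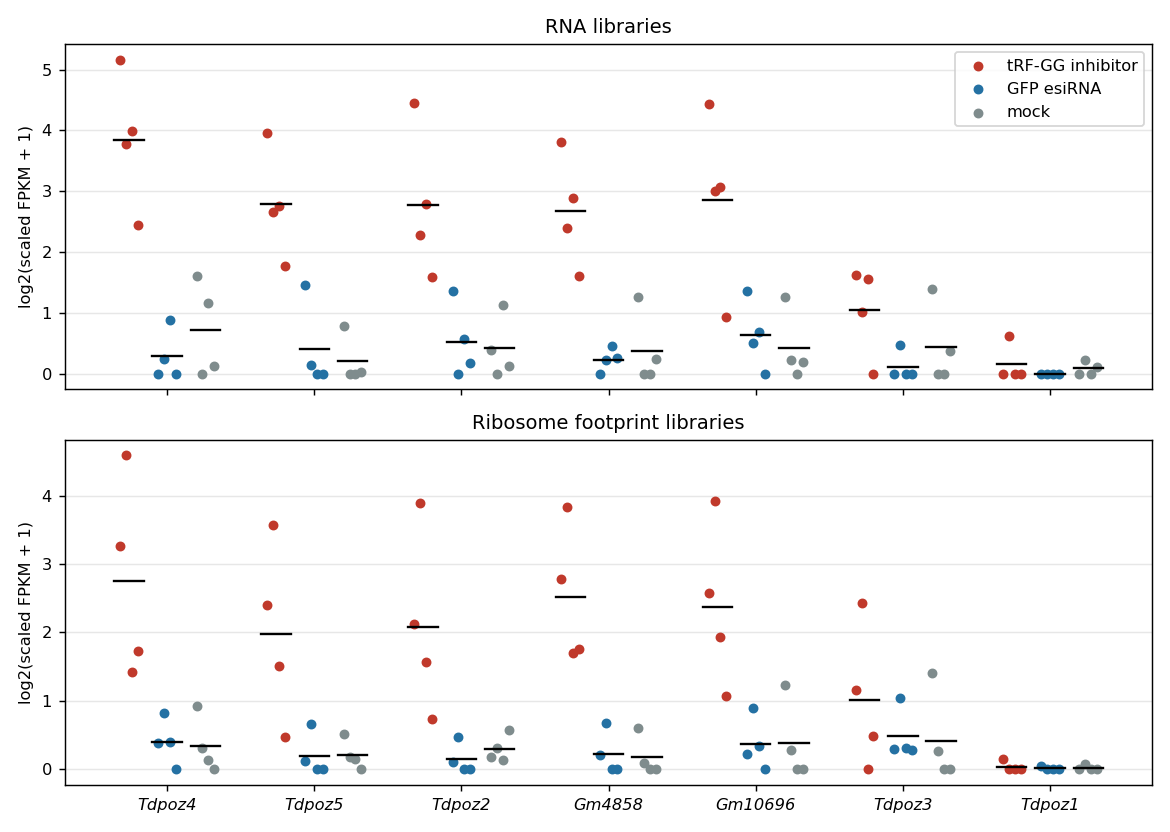
Level of each Tdpoz family gene on the y axis, as log2(scaled FPKM + 1), in RNA (upper panel) and footprints (lower panel), with 1 point per library, library 1 to 4 from left to right within a group, and a black line at the group mean. From left to right each gene has its inhibitor, GFP and mock libraries; in RNA the inhibitor points of Tdpoz4, Tdpoz5, Tdpoz2 and Gm4858 all lie above their control points.

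Over the family, 4 of 28 inhibitor RNA values and 25 of 56 control RNA values were listed at 0. In footprints these counts were 4 of 28 and 22 of 56. Levels over 2 scaled FPKM made up 19 of the 28 inhibitor RNA values and 1 of the 56 control RNA values, Tdpoz4 in mock RNA 1 at 2.03. In footprints they made up 15 of the 28 inhibitor values and 0 of the 56 control values, the highest control value being Tdpoz3 in mock 1 at 1.65.

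The inhibitor libraries lay wholly above the GFP libraries for 4 of the 7 genes in RNA (Tdpoz2, Tdpoz4, Tdpoz5 and Gm4858), where 1.09% of all 12560 genes tested did so, and above the mock libraries for the same 4, where 1.13% did. In footprints this held for 4 of 7 genes against GFP (Tdpoz2, Tdpoz4, Gm4858 and Gm10696), where 1.22% of 10669 genes did so, and for 3 of 7 against mock (Tdpoz2, Tdpoz4 and Gm4858), where 0.947% did. The difference was above 0 in all 4 same-numbered pairs for Tdpoz2, Tdpoz4, Tdpoz5, Gm4858 and Gm10696, 5 of 7 genes, in RNA against GFP (8.52% of the genes tested), in RNA against mock (6.91%) and in footprints against GFP (11%). Mock footprint libraries 1 and 2 did not deviate with the same numbers of the other groups, so no pair counts are given for mock footprints. Because the genes were chosen from these contrasts, nothing is read from these counts.

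The difference between the GFP and mock groups was not itself used in the choice of genes. Genes picked as high in inhibitor libraries against the controls are, however, low in both controls by that choice. The differences between GFP and mock RNA ran from -0.44 (SE 0.50) for Tdpoz4 to 0.21 (SE 0.58) for Gm10696. In footprints they ran from -0.15 (SE 0.50) for Tdpoz2 to 0.07 (SE 0.47) for Tdpoz3. The family total differed by -0.09 (log2) in RNA and -0.01 in footprints. The groups overlapped for all 7 genes, where 0.119% of genes in RNA and 0.253% in footprints lay wholly higher in GFP than in mock. For 0 of the 7 genes was GFP RNA above mock RNA in all 4 same-numbered pairs, where this held for 2.61% of genes.

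This comparison can show little for these genes. Of the 7 genes 6 reached the mean of 0.5 scaled FPKM needed for the fit with limma in each table, and they reached it mainly through the inhibitor libraries; Tdpoz1 did not. At an adjusted p under 0.05, limma called 0 of the 6 between GFP and mock in RNA, where 0% of all genes were called (0 of 12560, and 66 at an unadjusted p under 0.05), and 0 of the 6 in footprints, where 0.00937% were (1 of 10669, and 49 unadjusted). With control levels this low the fit had little chance to call them, so nothing is read from these counts. The standard errors come from one fit of all 3 groups, so they carry the wider spread of the inhibitor libraries. For Tdpoz2 footprints the SD of the log2 values was 1.34 in inhibitor, 0.22 in GFP and 0.20 in mock libraries. Such standard errors do not show that the 2 controls have equal levels.

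The control levels rest on few reads. For Tdpoz2, Tdpoz3, Tdpoz4 and Tdpoz5, taking the RefSeq span as the length, each FPKM was turned into an estimated number of reads. Tdpoz4 RNA came to 214 reads over the 4 inhibitor libraries, 5 over the GFP libraries and 8 over the mock libraries. Tdpoz2 came to 88, 6 and 3 reads in the same order of groups, Tdpoz5 to 83, 4 and 2, and Tdpoz3 to 18, 4 and 8. Nearly all reads of Tdpoz4, Tdpoz2 and Tdpoz5 were thus in the inhibitor libraries, while Tdpoz3 was spread more evenly.

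Footprint reads were distributed in a like manner. Tdpoz4 had 187 estimated reads in inhibitor footprints, 12 in GFP footprints and 10 in mock footprints. Tdpoz2 had 94 in inhibitor, 4 in GFP and 5 in mock footprints, Tdpoz5 had 79, 5 and 5, and Tdpoz3 had 31, 13 and 14. Of the control values above 0 for these genes, 15 of 18 in RNA and 17 of 23 in footprints were whole numbers of reads within 0.1 reads. Of the inhibitor values above 0, 5 of 15 in each table were whole. With a fixed tolerance of 0.1 reads, a small error in the estimated step makes values of many reads miss it. The shares of whole values therefore cannot be compared between inhibitor and control libraries. A value that is not whole can also arise where RSEM divides reads among similar genes.

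**Figure D3:**
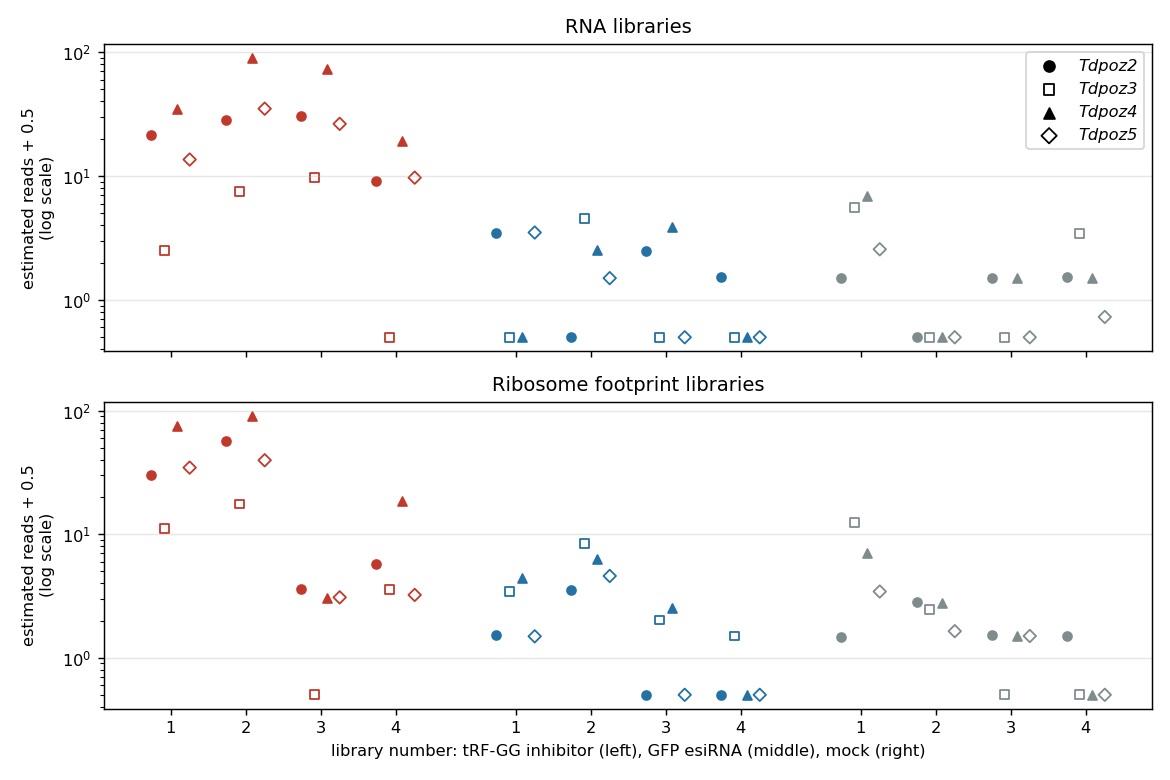
Estimated reads plus 0.5 on a logarithmic y axis for Tdpoz2, Tdpoz3, Tdpoz4 and Tdpoz5, in RNA (upper panel) and footprints (lower panel), by library along the x axis with the inhibitor group in red, GFP in blue and mock in grey. A point at 0.5 is a gene listed at 0; no control value of a gene exceeds 12.02 reads (Tdpoz3 in mock footprint 1), and Tdpoz4 sums to 214 RNA reads over the inhibitor libraries.

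Within the inhibitor libraries the share of Tdpoz4 in the family varied little in RNA, and other shares varied more. Tdpoz4 made up 35.5% ± 2.07 of the summed RNA level (SD, n = 4), with 32.9% to 37.6% over the libraries, while the family total ranged from 11.8 to 106 scaled FPKM among them. Gm10696 made up 16.2% ± 5.84, with 7.62% to 20.3% over the libraries, Tdpoz5 15.8% ± 3.20, Tdpoz2 15.5% ± 3.70 and Gm4858 14.3% ± 2.46. These 4 shares differ by less than their spread between libraries, so their order is not resolved. Tdpoz3 made up 2.35% ± 1.90, from 0 to 4.55%, and Tdpoz1 0.383% ± 0.766. Tdpoz4 was the highest member in all 4 inhibitor RNA libraries.

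The shares lay closer together in footprints, a difference between the tables that was not tested. Tdpoz4 made up 26.9% ± 7.40, Gm4858 22.9% ± 6.93, Gm10696 19.3% ± 5.10, Tdpoz2 14.2% ± 4.56, Tdpoz5 12.8% ± 5.28 and Tdpoz3 3.84% ± 2.62 of the summed footprint level (SD, n = 4). The share of Tdpoz4 and that of Gm4858 overlapped in footprints, and Tdpoz4 was the highest member in 2 of the 4 libraries. In inhibitor footprint 3, the shallowest footprint library, its share was 15.9%.

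**Figure D4:**
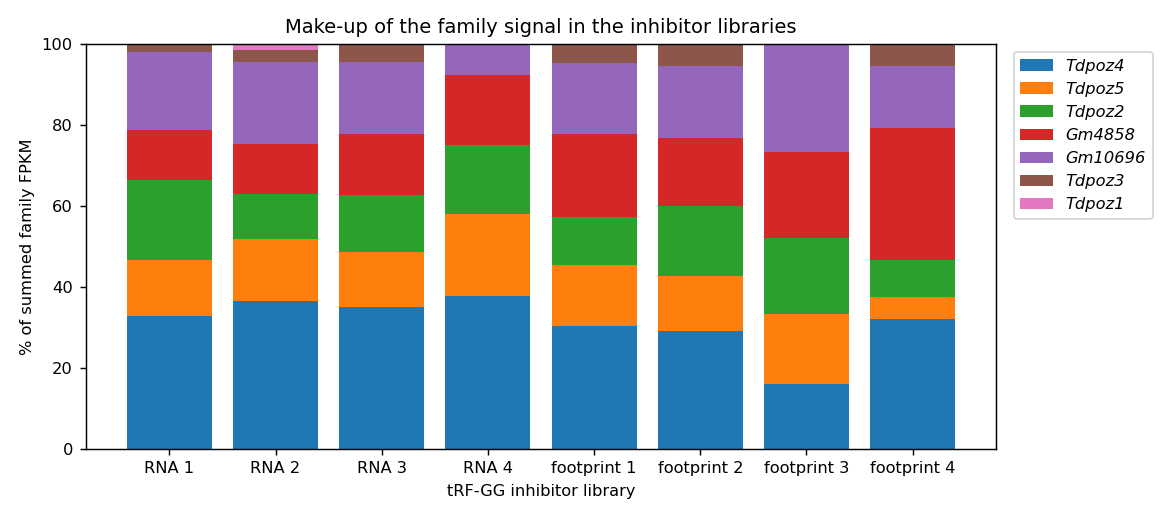
Share of each gene in the summed family level (y axis, percent) in the 4 RNA and 4 footprint libraries of the inhibitor group (x axis). The Tdpoz4 share runs from 32.9% to 37.6% in RNA and from 15.9% to 32.1% in footprints.

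The ratio of footprint to RNA level in the inhibitor libraries, taken as the difference of log2(mean scaled FPKM + 1), was -0.61 for the family total. Its rank was at the 61.8 percentile of 10497 genes, whose median was -0.82. These genes had a mean of at least 0.5 scaled FPKM in RNA and in footprints. The scaling of each table is its own, so only the rank among genes can be read. Tdpoz4 had -0.83, at the 49.1 percentile, and Tdpoz2, Tdpoz5 and Gm10696 had -0.63, -0.59 and -0.56. Gm4858 had -0.10 at the 85.3 percentile and Tdpoz3 0.15 at the 92.3 percentile. Tdpoz3 rests on 18 estimated reads in RNA and 31 in footprints. The pseudocount of 1 draws the ratio of a gene this low toward 0, so nothing is read from its rank. The family means lean on single libraries, inhibitor RNA 1 at 106 (mean 48.7) and inhibitor footprint 2 at 79.6 (mean 31.5). No spread between libraries is given for these ratios. No ratio is given for the controls, where the levels rest on too few reads.

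Other genes inside the cluster provide a local comparison. Gm9125 was not in the set by its symbol, and its RNA was 4.07, 1.95, 1.42 and 0.339 scaled FPKM in inhibitor libraries, against 0, 0, 0 and 0.0628 in GFP libraries and 0.446, 0, 0.576 and 0 in mock libraries. Of 8 further genes of the cluster in the files, 6 stayed below 1 scaled FPKM in every library of both tables (Crnn, Flg2, Hrnr, Rptn, Tchh and Tchhl1, genes of cornified epithelium). S100a10, which pairs with annexin A2, averaged 73.6 ± 18.8 scaled FPKM in inhibitor RNA, against 50.1 ± 6.36 in GFP RNA (SD, n = 4 each), a difference of 0.52 (SE 0.20, limma adjusted p of 1). S100a11, a related calcium-binding protein, averaged 24.6 ± 12.7 in inhibitor RNA, against 23.0 ± 15.2 in GFP RNA, a difference of 0.16 (SE 0.49, limma adjusted p of 1). Both S100 genes lie between Gm4858 and Tdpoz2.

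**Figure D5:**
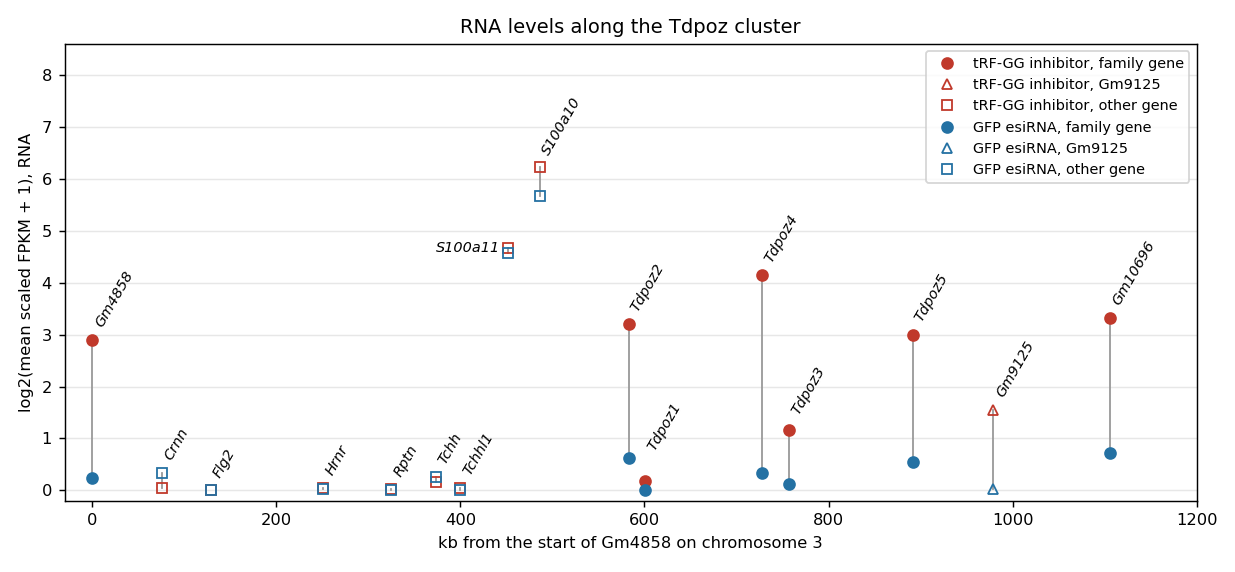
RNA level on the y axis, as log2(mean scaled FPKM + 1), of the genes of the cluster against their distance in kb from the start of Gm4858 on the x axis, for the inhibitor group (red) and the GFP group (blue), with filled circles for the 7 family genes, triangles for Gm9125 and squares for the other genes. Tdpoz4 shows the largest distance between the groups, while S100a10 differs by 0.52 and S100a11 by 0.16 on the log2(scaled FPKM + 1) scale.

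Of genes outside the family, 10491 had a mean of at least 0.5 scaled FPKM in RNA and in footprints. Those most like the family were found by Pearson r of log2(scaled FPKM + 1) with the log2 family total over the 12 RNA libraries. They were Gm4971 (r = 0.96 in RNA and 0.91 in footprints), Gm8994 (0.96 and 0.96), AF067063 (0.95 and 0.90), BC147527 (0.95 and 0.85), Abcb5, an ATP-driven membrane transporter (0.94 and 0.94), B020031M17Rik (0.94 and 0.95), B020004J07Rik (0.94 and 0.94) and Tcstv3 (0.94 and 0.93). The libraries share their group, so these r describe which genes separated the groups and varied within them as the family did. An r above 0.9 was found for 18 of the 10491 genes (0.172%) in RNA and 32 (0.305%) in footprints. Gm8994 averaged 22.4 scaled FPKM in inhibitor, 2.68 in GFP and 3.44 in mock RNA, and Tcstv3 averaged 19.5, 2.20 and 1.59.

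Genes of the 2-cell embryo outside the Tdpoz family were also mostly higher in inhibitor RNA, a direction known when the list was drawn up. Of 54 listed genes 43 were in the files and 37 were tested, 35 with a difference from GFP above 0 and a median of 1.26, while the median of all 12560 genes was -0.01 and 47.6% of them were above 0. At an adjusted p under 0.05, limma called 0 of the 37 against GFP (0.0159% of all genes were called, in either direction, and 391 genes had an unadjusted p under 0.05), and called 1, AF067063, higher against mock (0.0239%). With the replicate number as a block, which pairs RNA libraries of the same number, it called 11 of the 37 higher against GFP (0.255% of all genes) and 12 against mock (0.271%), and 0 lower. In footprints 31 of 36 were above 0 against GFP, with a median of 1.03, while the median of all 10669 genes was 0.01 and 52.9% of them were above 0. There limma called 0 against GFP (0.00937% of all genes), and 1, Sp110, with the block (0.075%). That block also held the mock footprints by number, though their numbers 1 and 2 did not pair. Listed genes near 0 in both controls passed the filter on the mean only through the inhibitor libraries. B020004J07Rik, for example, averaged 2.24 scaled FPKM in inhibitor, 0.157 in GFP and 0.157 in mock RNA. Nothing is therefore read from these counts and medians. The largest RNA differences were those of Gm8994 (2.71, SE 0.68), the telomere-associated Tcstv3 (2.64, SE 0.68) and B020031M17Rik (2.58, SE 0.75). The highest levels were those of Gm20767 (2.38, SE 0.73), Calcoco2, a receptor of selective autophagy (0.08, SE 0.60), and AF067061 (1.96, SE 0.81).

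Among the 37 tested genes of that list the smallest RNA differences from GFP were those of 3 Zscan4 genes, which act at telomeres in these cells. Zscan4b stood at -0.26 (SE 0.90), Zscan4c at -0.03 (SE 0.76) and Zscan4a at 0.03 (SE 0.56). The remaining Zscan4 genes of the list, which the choice by size did not pick, stood at 0.20 (SE 0.63) for Zscan4f and 0.31 (SE 0.49) for Zscan4d. All 5 differences lay within their standard errors. Their copies may be alike too, and the same doubt about single values applies. The summed level of the 43 genes was 74.8 to 584 scaled FPKM in inhibitor RNA, 37.4 to 187 in GFP RNA and 34.7 to 226 in mock RNA. The ranges of this list overlapped. Those of the Tdpoz total did not, but its genes were picked for being high in these inhibitor libraries. The list also holds genes with little difference, such as the Zscan4 genes, so the sums cannot be set against each other.

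The next list held SPOP, CUL3 ligase and TRAF genes, which bear on the domains of the Tdpoz proteins. Their RNA differences from GFP had a median near that of all genes. Of 22 genes, all tested in RNA, 12 had a difference from GFP above 0, with a median of 0.04, and limma called 0 higher and 0 lower. Spop, the substrate receptor itself, stood at 0.25 (SE 0.19), its paralogue Spopl at -0.54 (SE 0.35) and the scaffold Cul3 at -0.34 (SE 0.26). Nedd8, which activates cullins (-0.09, SE 0.36), the cullin exchange factor Cand1 (0.08, SE 0.17) and the RING subunit Rbx1 (-0.26, SE 0.17) had the highest levels of the list. The largest differences were those of the adaptor Traf2 (0.32, SE 0.24), Klhl13 (0.26, SE 0.60) and Spop, and the smallest those of Spopl, Keap1 (-0.36, SE 0.27) and Cul3. In footprints 16 of 21 were above 0 against GFP, with a median of 0.07, beside 52.9% and a median of 0.01 for all genes, and 0 were called.

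Markers of the cell line were present in every group. The 16 pluripotency markers summed to 2972 to 4038 scaled FPKM in inhibitor RNA, 3169 to 4000 in GFP RNA and 2913 to 4070 in mock RNA. Their median difference from GFP was -0.15, with 6 of 16 above 0 and 0 called. The highest levels were those of Dppa5a, an RNA-binding protein of pluripotent cells (0.13, SE 0.24), Pou5f1, the core pluripotency factor (-0.03, SE 0.31), and Tdgf1, a Nodal co-receptor (-0.25, SE 0.21). The largest differences were those of Dppa3, a maternal factor also found in germ cells (1.23, SE 0.42), Dppa4 (0.19, SE 0.23) and Klf2 (0.16, SE 0.28). Dppa3 RNA ranged from 0.969 to 7.14 in inhibitor, 0 to 0.731 in GFP and 0 to 1.68 in mock libraries. Its footprints did not overlap, at 0.890 to 2.45 in inhibitor, 0 to 0.521 in GFP and 0.363 to 0.699 in mock libraries. The smallest differences were those of Klf4 (-0.52, SE 0.28), Sox2 (-0.51, SE 0.22) and Zfp42 (-0.28, SE 0.18).

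The 10 fibroblast markers summed to 11.7 to 22.7 scaled FPKM in inhibitor RNA, 7.32 to 15.9 in GFP RNA and 10.9 to 13.9 in mock RNA. Of the 4 tested, 3 had a difference from GFP above 0, with a median of 0.12, and limma called 0. The surface glycoprotein Thy1 differed by 0.92 (SE 0.30), the matrix protein Fbln1 by 0.19 (SE 0.24), and the receptors Pdgfra and Pdgfrb by 0.05 (SE 0.33) and -0.05 (SE 0.25). Thy1 stood at 4.49 to 12.95 scaled FPKM in inhibitor RNA, against 2.81 to 6.04 in GFP RNA. Its footprints did not overlap, at 3.72 to 7.04 in inhibitor, 1.54 to 3.51 in GFP and 1.93 to 3.56 in mock libraries. The footprint ranges of Fbln1, Pdgfra and Pdgfrb overlapped those of both controls. Lum and Dcn, named after their values were seen, were listed at 0 in every library of all 3 groups in RNA and in footprints.

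Some trophoblast markers were at levels like those of the Tdpoz genes in inhibitor cells, in all 3 groups. The 9 summed to 13.5 to 49.9 scaled FPKM in inhibitor RNA, 8.69 to 53.3 in GFP RNA and 7.01 to 46.0 in mock RNA. The simple-epithelium keratin Krt8 ranged from 4.61 to 18.0 scaled FPKM in inhibitor RNA, from 1.98 to 22.7 in GFP RNA and from 1.47 to 20.9 in mock RNA. Its partner Krt18 ranged from 1.29 to 9.73 in inhibitor RNA, from 1.58 to 16.4 in GFP RNA and from 0 to 10.6 in mock RNA. The transcription factor Tfap2c ranged from 2.76 to 11.6, from 2.22 to 6.55 and from 2.41 to 8.001 in inhibitor, GFP and mock RNA. These ranges overlapped between the groups.

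Of the 6 trophoblast markers tested, 6 had an RNA difference from GFP above 0, with a median of 0.30, and limma called 0. Hand1 differed by 0.60 (SE 0.44), Ascl2 by 0.37 (SE 0.25), Tfap2c by 0.31 (SE 0.42), Krt8 by 0.28 (SE 0.72), Krt18 by 0.11 (SE 0.80) and Eomes by 0.09 (SE 0.34). Elf5, also named after its values were seen, was listed at 0 in all GFP and mock libraries of both tables and in all inhibitor footprint libraries. The part of these markers in the Tdpoz levels was not tested.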

How the data were processed

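RNA and ribosome footprints of E14 cells were measured in 24 libraries, 4 per group and assay, grouped by their labels. Per the submitters' processing notes the authors used CASAVA 1.8.2, TopHat, Bowtie2 and RSEM with the mm10 genome; other version numbers: not given in the sources used here. The deposited values are FPKM per gene, in one table per assay. Read counts were not used here.

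FPKM were scaled by a median of ratios over genes of at least 5 FPKM in every library (1717 in RNA, 2960 in footprints), since a library rich in ribosomal RNA has lower FPKM for all other genes. A pseudocount of 1 was added before log2. Genes with a mean of at least 0.5 scaled FPKM, 12560 in RNA and 10669 in footprints, were fitted with limma 3.58.1 (R 4.3.3; trended, robust empirical Bayes; all 3 groups in one fit; two-sided; Benjamini-Hochberg over all genes tested; threshold 0.05). Each p-value sets a difference between groups against the spread between libraries, which may be technical. No 2 libraries held identical values (0 pairs in each table). The fit was tested on simulated data. Tables, depth estimates and plots used Python 3.11.15, numpy 2.4.6, pandas 2.3.3 and matplotlib 3.10.9.

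Depth came from the smallest steps of FPKM times length in short genes (300 to 3000 bases of RefSeq span) that were listed with a single transcript; it limits the precision of levels near 0. Start windows and positions are from RefSeq, GRCm38.p6, the assembly known as mm10.

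Libraries with the same number deviated together. The correlation of their deviations from the group means was 0.315 to 0.782 in every RNA pair of groups and 0.448 to 0.807 between inhibitor and GFP footprints. With mock footprints it was -0.175 to 0.136 for numbers 1 and 2, and 0.385 to 0.840 for numbers 3 and 4. No counts over same-numbered pairs are therefore given for mock footprints. The labels do not say what a number shares. A fit with the number as a block was run as an alternative, beside a pseudocount of 0.1, FPKM as deposited, other filters and leaving out each library. In footprints the block also held the mock libraries by number, so its footprint counts rest partly on numbers that did not pair.

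The family and the gene lists were chosen with earlier results of these data known. Apart from all family members, the genes named are the 8 most like the family total in RNA, and from each list the 3 with the highest mean level and the 3 with the largest and smallest difference from GFP in RNA. Lum, Dcn, Elf5, Zscan4d, Zscan4f and the genes called with the block were named after their values were seen, and genes of the cluster by position.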

Additional observations from a re-analysis of the deposited data

Results flagged for a closer look

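In each group of 4 libraries, a gene was singled out when the gap between its highest or lowest library and the next was a larger part of the group's range than Dixon's critical value for 4 values allows. Of 47 groups with varying values, 41 of single genes and 6 of the family total, 14 met this, 2 in the inhibitor group and 12 in the controls. In 5 of the 14 the other 3 libraries were listed at 0, which meets the criterion whatever the value. Chance gives about 1 in 20 for normally distributed values, which levels of a few reads are not, so nothing is read from the number found. In all 14 the library singled out was number 1 or 2 and its value was under 2 scaled FPKM.

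In RNA the libraries that stood above their group were inhibitor 2 for Tdpoz1 (0.531 scaled FPKM), GFP 1 for Tdpoz5 (1.75), GFP 2 for Tdpoz3 (0.379), and mock 1 for Gm10696 (1.38), Gm4858 (1.40) and Tdpoz5 (0.713). In footprints they were inhibitor 1 for Tdpoz1 (0.105), GFP 1 for Tdpoz1 (0.0348), GFP 2 for Tdpoz3 (1.06) and Tdpoz5 (0.587), mock 1 for Gm10696 (1.35), Gm4858 (0.515) and Tdpoz3 (1.65), and mock 2 for Tdpoz1 (0.05004). Mock 1 held 6 of these values and also had the highest family total of the mock group in RNA and in footprints. Leaving it out moved the family total difference from mock within the ranges given under the processing.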

How the results depend on the processing

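The family total was higher in the inhibitor group in every alternative, by amounts that varied. In RNA it was 3.30 to 4.52 above GFP and 3.21 to 4.44 above mock, in footprints 2.67 to 4.22 and 2.66 to 4.21. Between GFP and mock it was -0.47 to 0.42 in RNA and -0.43 to 0.46 in footprints and changed sign in 13 of 29 alternatives. With the replicate block the averages, 3.79 and 3.70 in RNA and 3.30 and 3.29 in footprints, stay the same by construction. Among single family genes 532 values stayed within the spread between libraries and 26, all at a pseudocount of 0.1, did not. Against either control 0 of 372 values changed sign, while between GFP and mock 27 of 186 did, as with Gm10696 in RNA (-0.02 to 0.49 leaving out 1 library). Some of the values counted here could not move. The block, and leaving out a library of the group outside a comparison, both leave the difference unchanged. Counts of all genes called by limma moved most; the cause was not tested. For inhibitor minus GFP RNA (2 genes) there were 1 at a pseudocount of 0.1, 12 with FPKM as deposited, 0 without a filter, 1 at a mean of at least 5 FPKM, 32 with the replicate block, 0 to 15 leaving out 1 library, and 0 without the 3 libraries numbered 1, an alternative chosen after seeing the data. For inhibitor minus mock RNA (3 genes) there were 16 as deposited, 1 at 5 FPKM, 34 with the block and 0 to 18 leaving out 1 library. For inhibitor minus GFP footprints (1 gene) there were 4 as deposited, 3 without a filter, 0 at 5 FPKM, 8 with the block and 1 to 3 leaving out 1 library. For inhibitor minus mock footprints (0 genes) there were 3 as deposited, 1 without a filter, 2 with the block and 0 to 1 leaving out 1 library. For GFP minus mock footprints (1 gene) there were 0 at 5 FPKM and 1 to 2 leaving out 1 library. Leaving out inhibitor RNA 4 gave the 15 and 18 genes, and leaving out inhibitor RNA 1 or 3 gave 0. Against GFP, leaving out any 1 GFP RNA library, or mock RNA 3 or 4, also gave 0. Against mock, leaving out any 1 mock RNA library also gave 0. The 3 footprint genes against GFP came without inhibitor footprint 4, and the 2 between the controls without mock footprint 4. FPKM as deposited shifted the median of all RNA differences to -0.39 against GFP and -0.19 against mock. At a mean of at least 5 FPKM, 1 family gene was left in RNA and 0 in footprints. Control levels of a few reads limit what the depth can show.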
